A study of Mus musculus with 4 samples.

Results

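The genes described are 10 components and targets of the Wnt and beta-catenin pathway, Ctnnb1, Lef1, Tcf7l1, Tcf7l2, Axin2, Nkd1, Notum, Apcdd1, Sfrp1 and Dkk3. They were chosen by symbol among the 32285 genes of the count matrices, and all 10 were found once. They were followed across 18 groups of cells and 4 single-cell libraries. The libraries were made from forebrain cells of C57BL/6 mice at postnatal day 5, sorted for the tdTomato reporter and pooled from several mice. All mice carried NestinCreERT2, a tamoxifen-activated Cre recombinase driven by Nestin regulatory sequence in neural progenitor cells, and tdTomato, a Cre-activated red fluorescent reporter, and tamoxifen was given at the midfetal stage. The 2 control libraries were Chd8+/+, and the 2 mutant libraries were Chd8+/F, in which Cre removes the floxed part of a single Chd8 allele. In what follows, mutant stands for the libraries labelled with that genotype. Because mice were pooled, p-values measure the spread between libraries and not between mice.

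In the canonical Wnt pathway, a destruction complex that contains AXIN marks beta-catenin for degradation until a Wnt ligand engages Frizzled and LRP receptors. Beta-catenin then accumulates, enters the nucleus and activates target genes together with transcription factors of the TCF and LEF family. Several targets encode inhibitors of the pathway itself, so that their mRNA is widely used as a readout of its activity. CHD8 is a chromatin remodeler that has been described as a negative regulator of beta-catenin targets. In the brain the pathway is known for its part in blood vessels and their barrier, in the hippocampus and in the timing of oligodendrocyte differentiation. In these genes, Ctnnb1 encodes beta-catenin, and Lef1, Tcf7l1 and Tcf7l2 encode its DNA-binding partners. Axin2 and Nkd1 are targets that act back on the pathway inside the cell. Notum, an enzyme that inactivates Wnt ligands, Apcdd1, a membrane inhibitor, Sfrp1, a secreted Wnt-binding protein, and Dkk3, a divergent member of the Dickkopf family, act outside the cell or at its surface.

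The 250 bases before annotated start sites are printed for Axin2, Lef1 and Nkd1, 3 genes for which the pathway is known to act on transcription, because a TCF and LEF factor binds through the core letters CTTTGA or CTTTGT. The sequences are from RefSeq on build GRCm38.p6, which has the coordinates of mm10, and 6 of the 10 genes had an entry there. Lef1 is shown at the first and the last of its 4 start sites there, called the upstream and the internal start. The internal Lef1 window and the Nkd1 window lie inside the annotated spans of their genes. Capitals mark the letters CTTTGA or CTTTGT on either strand.

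Axin2, chr11:108920099-108920348 (+ strand): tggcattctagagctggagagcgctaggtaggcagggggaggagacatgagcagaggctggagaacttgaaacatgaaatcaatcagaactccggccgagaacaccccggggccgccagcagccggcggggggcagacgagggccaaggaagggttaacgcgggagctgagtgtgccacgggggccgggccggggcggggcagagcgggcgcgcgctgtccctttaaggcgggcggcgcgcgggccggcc

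Lef1, upstream start, chr3:131110047-131110296 (+ strand): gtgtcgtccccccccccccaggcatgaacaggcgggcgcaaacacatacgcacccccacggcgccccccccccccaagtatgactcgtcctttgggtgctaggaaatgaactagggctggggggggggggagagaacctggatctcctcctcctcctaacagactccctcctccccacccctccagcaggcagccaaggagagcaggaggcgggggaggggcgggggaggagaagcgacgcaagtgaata

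Lef1, internal start, chr3:131156044-131156293 (+ strand): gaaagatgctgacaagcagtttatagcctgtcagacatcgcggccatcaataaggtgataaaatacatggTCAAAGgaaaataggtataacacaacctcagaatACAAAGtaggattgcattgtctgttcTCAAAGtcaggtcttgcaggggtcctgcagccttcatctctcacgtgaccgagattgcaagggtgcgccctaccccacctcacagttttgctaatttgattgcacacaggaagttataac

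Nkd1, chr8:88527383-88527632 (+ strand): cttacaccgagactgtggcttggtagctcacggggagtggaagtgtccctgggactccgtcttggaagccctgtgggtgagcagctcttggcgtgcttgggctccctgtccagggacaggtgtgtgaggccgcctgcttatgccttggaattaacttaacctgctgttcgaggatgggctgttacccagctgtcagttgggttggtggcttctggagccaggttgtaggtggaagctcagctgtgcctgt

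The windows of Axin2, Nkd1 and the upstream Lef1 start held neither motif. The other Lef1 windows, which are not printed, also held neither, and 1 of these lies inside the gene. The internal Lef1 window held 2 copies of CTTTGA and 1 of CTTTGT, written here as TCAAAG and ACAAAG because they lie on the other strand. Among the genes with an entry that are not printed, Tcf7l1 held 1 CTTTGT in its window. Tcf7l2 held 1 CTTTGT in the window of its second start site, inside the gene. The first Tcf7l2 window and the Ctnnb1 windows held neither motif. Among 32851 windows of the same length before mouse start sites, 13.8% held CTTTGA, 16.5% held CTTTGT and 27.6% held either. These are matches of letters only, and the counts from transcript 3′ ends do not tell which start site was used.

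The libraries held 79328841 and 78211984 unique molecular identifiers (UMIs, which count captured transcript molecules) for control and mutant replicate 1, and 46274374 and 50616343 for control and mutant replicate 2. After filters on cells, 17623 of 27742 barcodes remained, 8683 from control and 8940 from mutant libraries, with medians of 11497 to 11838 UMIs a cell. The share of barcodes over the limit of 10% mitochondrial counts was 9.38% and 12.3% in the replicate 1 libraries and 44.0% and 37.8% in those of replicate 2. Headers named Cell Ranger 7.0.0 for both replicate 1 libraries and 5.0.1 for both of replicate 2, and Xist stood at 0.149 and 0.153 CPM (counts relative to the total UMIs of the library or class) in replicate 1 against 1633 and 1749 in replicate 2. The paper's reporting summary names male mice for the single-cell sequencing, whereas Xist was high in both replicate 2 libraries. The sex of the mice was not tested, and a difference in it would go with the replicate number. Libraries shared 8 to 21 barcodes a pair. The labels call the cells neuronal, whereas 5347 of the cells kept (30.3%) fell in classes named from neuron or neuronal precursor markers, and classes with astrocyte, oligodendrocyte-lineage and other markers held most of the rest. One cluster of 946 cells scored highest for astrocyte markers and next for neural stem markers. Veph1, a neural stem marker, was its leading gene, so that it stayed unnamed and is called the Veph1-led cluster. Sfrp1 was second among its leading genes although Wnt pathway genes were kept out of the genes used for clustering.

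Chd8, the targeted gene, was counted over all cells at 61.7 and 68.7 CPM in control and mutant replicate 1 and at 89.8 and 94.9 CPM in control and mutant replicate 2. It was thus not lower in the libraries labelled mutant, and the change was 0.09 on the log2 scale (SE 0.33, adjusted p = 1 by edgeR's quasi-likelihood test). Counts of 3′ ends cannot tell a recombined allele from an intact one, so that this neither checks nor contradicts the labels. By immunoblot, the paper reports less CHD8 protein in sorted tdTomato-positive cells of mutant than of control embryos after midfetal induction. That is protein at an earlier stage than these libraries.

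Across cell classes, expression of the 10 genes fell into different patterns, which are described without a test because the classes were built from the same cells. Values are means ± SD over the 4 libraries in CPM of the class, and a class is named "-like" after its markers.

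Beta-catenin mRNA was found throughout. Ctnnb1 ranged from 168 ± 19.2 CPM in border macrophage-like cells to 536 ± 84.8 CPM in endothelial-like cells (SD, n = 4). In endothelial-like cells it stood at 643 and 518 CPM in the controls and at 438 and 544 CPM in the mutants. Neural stem-like cells followed at 442 ± 50.1 CPM, and the ranges of neighbouring classes at the top of the order overlapped.

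The 3 DNA-binding partners differed in profile, although committed OPC-like cells had the highest mean of both Tcf7l1 and Tcf7l2. Tcf7l2, a factor known for its part in oligodendrocyte differentiation, was highest in committed OPC-like cells (cells past the oligodendrocyte precursor stage, whose leading genes also included the myelin genes Mbp and Mag). There it was counted at 983 and 450 CPM in control replicates 1 and 2 and at 1051 and 670 CPM in mutant replicates 1 and 2. Its mean of 788 ± 280 CPM was 4.87-fold that of the next class, the Veph1-led cluster at 162 ± 24.8 CPM, and the ranges did not overlap. In OPC-like cells, the stage before, it was 100.4 ± 30.3 CPM. It was lowest in inhibitory neuron-like cells at 6.40 ± 0.848 CPM. Committed OPC-like cells made up 33.2% of all Tcf7l2 counts from 566 of the 17623 cells.

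Lef1 was highest in endothelial-like cells at 213 ± 75.4 CPM, 2.17-fold the next class. The 4 libraries there stood at 189 and 168 CPM (controls) and 326 and 171 CPM (mutants), from only 10, 26, 62 and 68 cells. Dividing excitatory precursor-like cells, named from Eomes and Neurog genes, followed at 98.3 ± 25.4 CPM and did not overlap with the class above or below. Lef1 was 42.8 ± 5.70 CPM in astrocyte-like cells but 3.77 ± 2.55 CPM in OPC-like and 1.78 ± 0.912 CPM in inhibitory neuron-like cells, from 66 and 46 counts in all.

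Tcf7l1, known mainly as a repressor of targets, was at similar levels in committed OPC-like (80.2 ± 39.6 CPM), astrocyte-like (74.5 ± 35.6), Veph1-led (62.8 ± 25.2) and mural-like cells (59.1 ± 21.5), and these ranges overlapped. It was low in neurons, with 6.25 ± 5.37 CPM in excitatory and 3.08 ± 0.726 CPM in inhibitory neuron-like cells. Astrocyte-like cells held 52.1% of its counts.

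**Figure D1:**
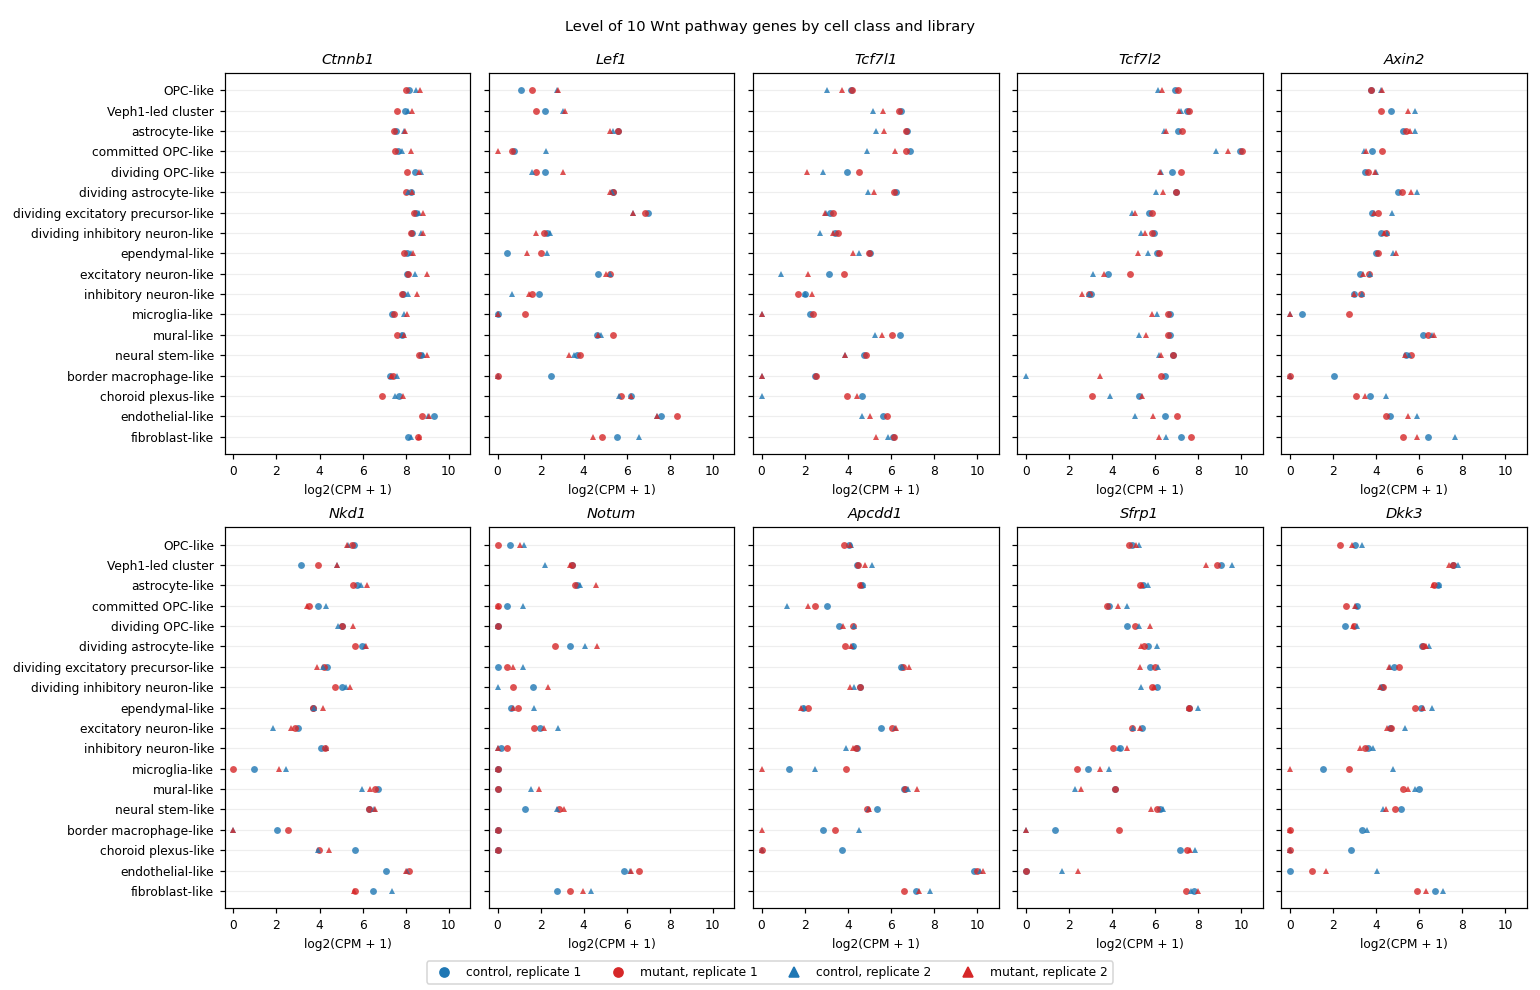
Level of each of the 10 genes, as log2(CPM + 1) on the horizontal axis, in 18 cell classes on the vertical axis; blue marks control and red mutant libraries, circles replicate 1 and triangles replicate 2. Tcf7l2 stands apart in committed OPC-like cells (mean 788 CPM), Apcdd1 in endothelial-like cells (mean 1074 CPM) and Sfrp1 in the Veph1-led cluster (mean 522 CPM), whereas Ctnnb1 varies little.

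The targets Axin2 and Nkd1 were shared by vascular, meningeal and glial classes. Axin2 was highest in fibroblast-like (96.6 ± 74.3 CPM) and mural-like cells (88.5 ± 13.3 CPM), the cells of the meninges and of the vessel wall. Mural-like cells stood at 71.7 and 97.1 CPM in controls and 84.0 and 101 CPM in mutants, 1.98-fold the next class with no overlap. Astrocyte-like (44.7 ± 7.96), neural stem-like (43.6 ± 4.0) and dividing astrocyte-like cells (43.6 ± 12.2) then differed by less than their SDs. Microglia-like cells had 5 Axin2 counts in all.

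Nkd1 was highest in endothelial-like cells at 235 ± 67.3 CPM. Fibroblast-like (86.8 ± 53.3), neural stem-like (85.4 ± 8.37) and mural-like cells (84.2 ± 17.9) came next within their SDs. It was 5.28 ± 1.88 CPM in excitatory neuron-like cells.

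Apcdd1, an inhibitor linked to the formation of vessels in the retina and brain, reached 1074 ± 146 CPM in endothelial-like cells, with 914 and 1108.5 CPM in the controls and 1015 and 1257 CPM in the mutants. This was 6.93-fold the level of fibroblast-like cells (155 ± 52.5 CPM), with no overlap. The 166 endothelial-like cells held 31.9% of all Apcdd1 counts. Among neural classes Apcdd1 was highest in dividing excitatory precursor-like (97.2 ± 11.8 CPM) and excitatory neuron-like cells (64.4 ± 13.5 CPM), and it was 18.2 ± 3.07 CPM in inhibitory neuron-like cells.

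Notum was likewise highest in endothelial-like cells at 73.5 ± 14.3 CPM, 4.99-fold the next class, and was otherwise seen mainly in astrocyte-like (14.7 ± 5.20 CPM) and dividing astrocyte-like cells (13.5 ± 8.15 CPM). It had 0 counts in dividing OPC-like, microglia-like, border macrophage-like and choroid plexus-like cells. In dividing OPC-like cells, the deepest of these, a count of 0 allows up to 0.929 to 2.08 CPM in a library (3 counts, counting error only). Endothelial-like cells thus had the highest mean of 5 genes, Ctnnb1, Lef1, Nkd1, Notum and Apcdd1, while Sfrp1 and Dkk3 were nearly missing there, with 5 and 10 counts. The defining endothelial markers summed to 10082 to 12155 CPM in these cells. Mural markers summed to 145, 193 and 468 CPM in 3 of the libraries and to 2965 CPM in control replicate 2.

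Sfrp1 was highest in the Veph1-led cluster, at 529 and 756 CPM in the controls and 469 and 332 CPM in the mutants. Its mean of 522 ± 177 CPM was 2.44-fold that of fibroblast-like cells (214 ± 33.5 CPM), and ependymal-like (207 ± 34.1) and choroid plexus-like cells (185 ± 37.7) lay close behind. In the Veph1-led cluster, astrocyte markers summed to 4664 to 5348 CPM and neural stem markers to 469 to 642 CPM. After each cell was thinned to 5000 UMIs, 14, 2, 15 and 21 shallower cells of control 1, control 2, mutant 1 and mutant 2 were left out, and Sfrp1 was found in 81.3% and 68.3% of its cells in the controls and in 76.1% and 50.5% in the mutants. Unthinned, the shares were 89.2% and 76.1% in the controls and 86.1% and 59.7% in the mutants. In microglia-like cells, which should lack it, the thinned share was 0% to 7.69%. The unthinned median depths in the Veph1-led cluster were 9646 to 11258 UMIs, and in microglia-like cells 6074 to 13120 UMIs.

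Dkk3 was also highest in the Veph1-led cluster (192 ± 23.7 CPM), without overlap with the next class, astrocyte-like cells at 109 ± 10.9 CPM. It was low in the oligodendrocyte lineage, at 6.67 ± 2.10 CPM in OPC-like and 6.81 ± 1.16 CPM in committed OPC-like cells.

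Single clusters within a class also differed. Among astrocyte-like clusters, a Gfap-led cluster of 866 cells had the highest Notum (34.1 CPM over all its cells), against 10.7 CPM in the cluster led by 8030451A03Rik and Grm3 (1784 cells) and 5.88 CPM in that led by Slc6a11 (1277 cells). Nkd1 in these 3 clusters was 108, 41.3 and 40.5 CPM, and Axin2 was 57.8, 37.4 and 43.2 CPM. In the Gfap-led cluster the 4 libraries spanned 17.8 to 47.3 CPM for Notum and 87.9 to 126 CPM for Nkd1. The 8030451A03Rik and Slc6a11 clusters held mostly cells of replicate 1 (1777 of 1784) and replicate 2 (1220 of 1277), so a comparison between those 2 cannot be told apart from the replicate.

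A small astrocyte-like cluster of 119 cells led by Hopx and Thrsp had Lef1 at 188 CPM and Apcdd1 at 70.8 CPM, whereas the other astrocyte-like clusters lay at 23.2 to 59.0 CPM for Lef1 and 6.49 to 28.8 CPM for Apcdd1. In the ependymal-like class, Sfrp1 was 323 CPM in the cluster led by Deup1, a gene of multiciliated cell differentiation, and 91.6 CPM in that led by Tmem212, with ranges over libraries of 274 to 480 and 80.6 to 104 CPM.

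**Figure D2:**
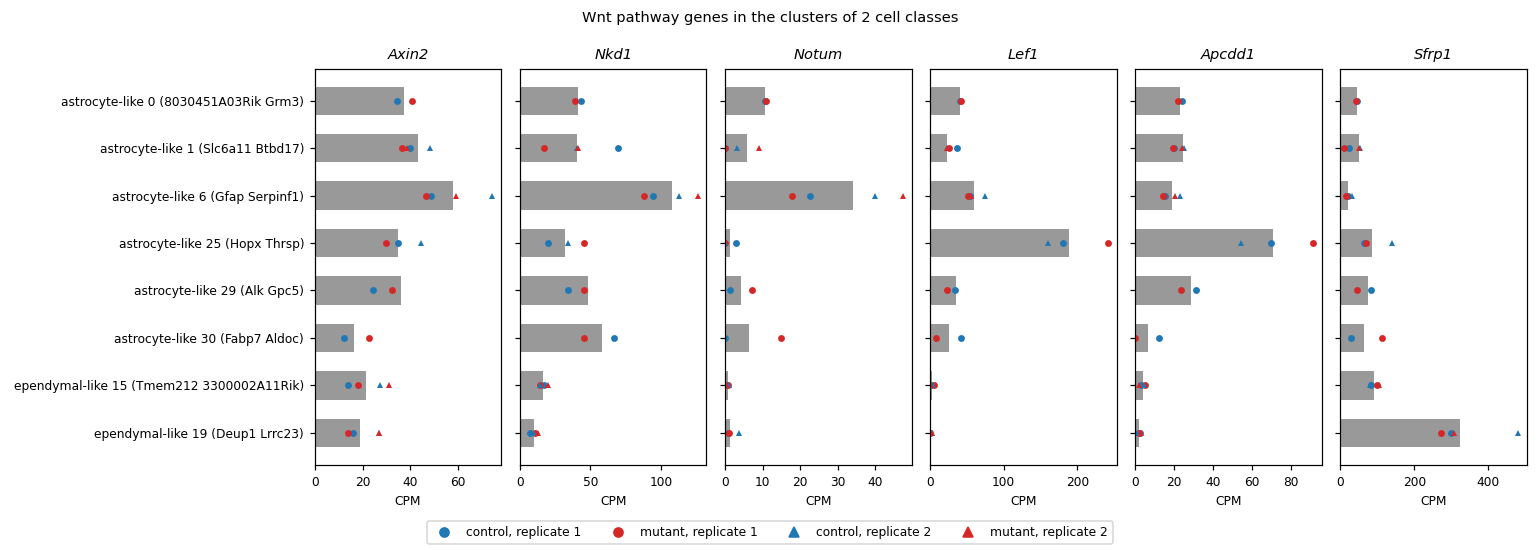
Level of 6 genes in CPM (horizontal axes, from 0) in the clusters of the astrocyte-like and ependymal-like classes (vertical axis, with 2 leading genes). Bars give all cells of a cluster and points give libraries with at least 20 cells; the Gfap-led cluster is highest in Notum (34.1 CPM) and the Hopx-led cluster in Lef1 (188 CPM).

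Genes with the most similar profile were sought as the 3 highest Pearson correlations of log2(CPM + 1) class means over 18 classes, among 14386 genes with at least 10 CPM in some class. The classes share libraries and depth, and the values are descriptions. They were Pdgfd, Id1 and Heg1 for Lef1 (r = 0.802, 0.780 and 0.767), Amt, Wipi1 and Fermt2 for Tcf7l1 (0.924, 0.873 and 0.872) and Dnajb11, Ppnr and Sash1 for Tcf7l2 (0.893, 0.890 and 0.871). Ppnr overlaps Tcf7l2 on the same strand, so that their reads cannot be fully told apart. For Axin2 they were Cavin3, Capn2 and Lysmd2 (0.927, 0.913 and 0.907), for Nkd1 Ybx3, Cdc42ep1 and Mapk12 (0.904, 0.888 and 0.879) and for Notum Plekhg1, Aspscr1 and Ephb4 (0.880, 0.868 and 0.845). Apcdd1 was nearest to Bag5, Tcf15 and Dennd3 (0.878, 0.864 and 0.860), Sfrp1 to Gm9925, Patj and Ctf1 (0.901, 0.895 and 0.887) and Dkk3 to Ccdc80, Ppp1r3c and Gm11627 (0.955, 0.921 and 0.918). Ctnnb1, with the flattest profile, was nearest to Myh10, Cdc26 and Kars (0.832, 0.822 and 0.813). Among the 10 genes themselves, the closest pair was Axin2 and Nkd1 (r = 0.854), followed by Tcf7l1 and Axin2 (0.823).

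Gene structure is given for mm10. Ctnnb1 spans chr9:120929216-120960507 (+), Lef1 chr3:131110471-131224356 (+), Tcf7l1 chr6:72626378-72789254 (-), Tcf7l2 chr19:55741820-55933654 (+) and Axin2 chr11:108920349-108950783 (+). Nkd1 spans chr8:88521354-88594884 (+), Notum chr11:120653788-120661175 (-), Apcdd1 chr18:62922231-62961179 (+), Sfrp1 chr8:23411502-23449632 (+) and Dkk3 chr7:112116017-112159057 (-). Notum lies opposite Notumos and Myadml2os, Ctnnb1 opposite Ulk4 and 4930593C16Rik, and Axin2 opposite Gm11670. Lef1 lies opposite Gm43352, and Tcf7l1 opposite Gm15401 and Gm15402. Reads of such overlapping genes cannot be told apart unless counting used the strand, which was not given in the sources used here. Levels also differed between the replicate numbers, which went with the software versions. In astrocyte-like cells the log2 ratio of replicate 2 to replicate 1 was -1.48 in controls and -1.06 in mutants for Tcf7l1, which has 158953 intronic bases. It was -0.66 and -0.75 for Tcf7l2 (183060 intronic bases) and -0.25 and -0.40 for Lef1 (105098 intronic bases). For the other 7 genes, with 4980 to 68973 intronic bases, the ratios lay between -0.06 and 0.99, and that of Notum, with the fewest intronic bases, was 0.14 in controls and 0.99 in mutants. Whether introns were counted was not tested.

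To ask whether heterozygous mutation of Chd8 changed these genes, counts were summed per library and compared between the 2 control and 2 mutant libraries in the 14 classes with at least 20 cells in every library. No gene of the 10 was called in any class by edgeR's quasi-likelihood test at an adjusted p under 0.05, and none had an unadjusted p under 0.05. The 10 genes gave 119 tests that passed the filter on low counts, 66 with a higher and 53 with a lower fitted mean in mutants, with a median log2 change of 0.02. Over all genes, 0 of 165270 tests (0%) were called, 236 had an unadjusted p under 0.05, and the median log2 change was 0.00. DESeq2 called none of the 10 either, with 0 at an unadjusted p under 0.05. Neither fit held the replicate number, although same-numbered libraries deviated together, so differences between replicate numbers added to the error. The lack of calls therefore does not show that the genes were unchanged. With the replicate number as a block, edgeR called 1 of the 119 tests, beside 133 of all 165270 (0.0805%).

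A plainer count asked whether both mutant libraries lay on the same side of both controls. This held below the controls in 14 of the 119 tests (11.8%), beside 7.27% of all tests, and above them in 2 (1.68%), beside 8.22% of all tests. With TMM-scaled levels the counts were 17 (14.3%) and 2 (1.68%). On that scale 89 further pathway genes, described below, lay below in 64 of 743 tests (8.61%) and above in 68 (9.15%). The shares of all tests were not counted on that scale, and those given above are for unscaled levels. Sfrp1 and Dkk3 made up 10 of the 14, and the classes share libraries, so that these are not separate observations.

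In the Veph1-led cluster, Sfrp1 was 529 and 756 CPM in the controls and 469 and 332 CPM in the mutants, so that both mutant libraries lay below both controls and mutant replicate 2 was lowest. The log2 change was -0.68 (SE 0.33, adjusted p = 1 by edgeR). With the replicate number as a block it was -0.68 (SE 0.17, adjusted p = 0.0425), a call that the fit without the block does not make. With 4 libraries the block leaves few degrees of freedom, so that its SE leans on the spread of other genes. That SE does not measure how far the change differed between the replicate numbers. With the block 23 of 12203 genes (0.188%) were called in this cluster, and 0.0805% of tests over the 14 classes. Within replicates the mutant to control ratio of Sfrp1 was 0.885 (95% exact interval 0.830 to 0.945, counting error only) in replicate 1 and 0.439 (0.394 to 0.489) in replicate 2. Without mutant replicate 2 the log2 change was -0.43, and without mutant replicate 1 it was -1.0, both from the fit without the block.

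The only other pathway genes called with the block, among the 10 and 89 further pathway genes, were Rspo3, an R-spondin that strengthens Wnt signalling, and Wnt8b, a ligand known from the cortical hem, both in the same cluster. Rspo3 stood at 2.05 and 36.4 CPM in the controls and at 9.22 and 92.5 CPM in the mutants. Wnt8b stood at 0 and 8.49 CPM in the controls and at 2.46 and 39.4 CPM in the mutants. The groups overlapped for both genes, and each mutant lay above the control of its own replicate number. Their log2 changes with the block were 1.54 (SE 0.30, adjusted p = 0.000434) and 2.48 (SE 0.52, adjusted p = 0.00187) by edgeR. The limit of the block given for Sfrp1 holds for these SEs too. Without the block they were 1.43 and 2.45 with an adjusted p of 1. When mutant replicate 2 was also left out, mutant replicate 1 stood against both controls, and the changes turned to -0.94 and -0.57.

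These counts came from few cells. Rspo3 was found in 7 and 10 cells of the controls and in 7 and 17 cells of the mutants. Cells with Rspo3 or Wnt8b made up 1.88% and 6.75% of the cluster in the controls and 2.44% and 15.3% in the mutants. In such cells Sfrp1 was 446 and 50.6 CPM in control replicates 1 and 2 and 234 and 3.99 CPM in mutant replicates 1 and 2. These values came from 7 and 11 cells in the controls and 7 and 19 in the mutants. In the cells without either transcript, Sfrp1 was 531 and 821 CPM in the controls and 477 and 404 CPM in the mutants. Cells of the same kind in which neither transcript was captured stay among these, so that the split does not separate kinds of cell. The part of the cell mix in the Sfrp1 difference was not tested. At a resolution of 2 the cluster kept few replicate 2 cells, as given below.

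In 4 other classes, Sfrp1 was also below both controls in both mutants. It was 73.6 and 82.3 CPM in control and 66.5 and 55.0 CPM in mutant neural stem-like cells (log2 change -0.34, SE 0.27). In dividing astrocyte-like cells it was 50.8 and 66.9 against 44.4 and 39.3 CPM (-0.51, SE 0.27). Differences were smaller in ependymal-like cells, with 192 and 258 against 188 and 188 CPM (-0.28, SE 0.25), and in astrocyte-like cells, with 42.3 and 50.2 against 39.1 and 41.7 CPM (-0.20, SE 0.23). None of these passed the test. In neural stem-like cells, neural stem markers summed to 1386 and 1236 CPM in the controls and 1213 and 1043 CPM in the mutants, and OPC markers to 1102 and 1220 CPM in the controls and 1226 and 2031 CPM in the mutants. OPC markers in dividing astrocyte-like cells summed to 420 and 431 CPM in the controls and 540 and 648 CPM in the mutants. The part of these markers in the Sfrp1 differences was not tested. In dividing OPC-like cells Sfrp1 was higher in the mutant of both replicates, at 25.3 and 37.4 CPM in controls and 32.5 and 53.0 CPM in mutants, with overlap.

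Dkk3 lay below both controls in both mutants in 5 of the 13 classes tested. In astrocyte-like cells, which held 51.1% of its counts, it was 115 and 121 CPM in the controls and 102 and 97.6 CPM in the mutants. The log2 change was -0.25 (SE 0.20, adjusted p = 1 by edgeR), and the ratios within replicates were 0.883 (0.828 to 0.941) and 0.810 (0.751 to 0.873). In mural-like cells it was 62.1 and 54.6 CPM against 37.0 and 43.9 CPM (log2 change -0.55, SE 0.30). In these mural-like cells astrocyte markers summed to 657 and 304 CPM in the controls and 161 and 248 CPM in the mutants, and mural markers to 11449 and 17160 CPM in the controls and 15980 and 18927 CPM in the mutants. In inhibitory neuron-like cells it was 11.2 and 13.4 CPM against 10.2 and 8.59 CPM (-0.38, SE 0.39). In OPC-like and committed OPC-like cells Dkk3 lay on the same side at under 10 CPM, and in the committed cells astrocyte markers were also lower in both mutants (101 and 123 CPM against 201 and 324 CPM in the controls). Dkk3 was lower in the mutant of both replicates in 6 of the 13 classes and higher in both in 0. The share of all genes that did so was not counted, and the classes share libraries, so that these counts are no result about Dkk3. In astrocyte-like cells, the astrocyte markers summed to 8932 and 8104 CPM in controls and 8996 and 8419 CPM in mutants. The part of these markers in the Dkk3 differences was not tested.

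**Figure D3:**
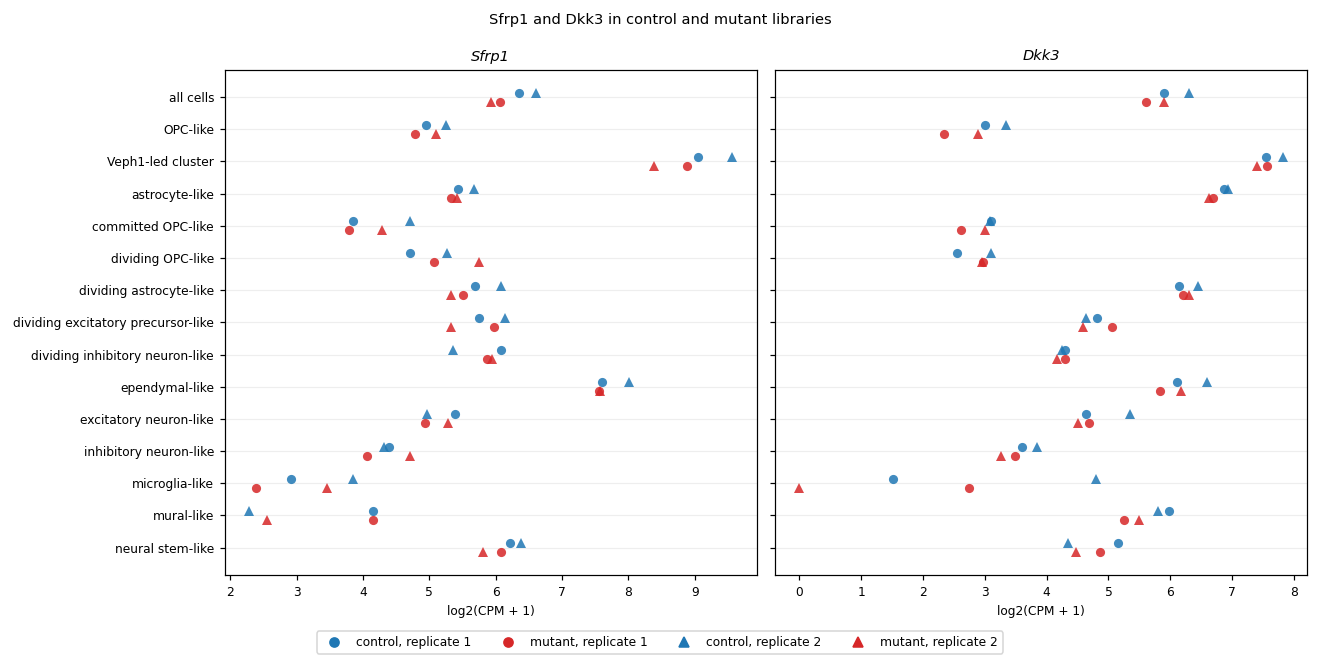
Sfrp1 (left) and Dkk3 (right) as log2(CPM + 1) on the horizontal axis in all cells and the 14 tested classes; blue marks control and red mutant libraries, circles replicate 1 and triangles replicate 2. Both mutant libraries lie below both controls for Sfrp1 in 5 classes and for Dkk3 in 5 classes, and none lies above in both.

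Apcdd1 was on opposite sides in different classes. It was 87.8 and 91.5 CPM in control and 95.1 and 114 CPM in mutant dividing excitatory precursor-like cells, with both mutants above (log2 change 0.23, SE 0.25). In astrocyte-like cells it was 24.1 and 25.1 against 22.6 and 23.3 CPM (-0.11, SE 0.21), with both mutants below. In dividing astrocyte-like cells it was 17.9 and 17.9 against 13.7 and 17.0 CPM (-0.23, SE 0.30). Each change was smaller than its SE in the edgeR fit without the block.

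Notum was above both controls in both mutants in neural stem-like cells, with 1.40 and 5.73 CPM against 6.26 and 7.56 CPM, from 39 counts in all (log2 change 1.05, SE 0.89). Nkd1 was below in committed OPC-like cells, with 14.2 and 18.8 CPM against 10.4 and 9.66 CPM (-0.66, SE 0.42). In the same cells astrocyte markers summed to 201 and 324 CPM in the controls and 101 and 123 CPM in the mutants, and 0 of the 8 were higher in the mutant of both replicates. Their part in the Nkd1 difference was not tested. Lef1 was below in dividing inhibitory neuron-like cells from 57 counts. Ctnnb1, Axin2, Tcf7l1 and Tcf7l2 overlapped between groups in every class tested. For Tcf7l2, the log2 change without the block ranged from -0.22 to 0.87 over 14 classes. Its smallest unadjusted p was 0.2236 by edgeR without the block and 0.00738 with it, and it was called in no class. The mutant of each replicate number lay above its control for Tcf7l2 in 6 of 14 classes and below it in 2. The share of all genes that did so was not counted, so that these counts are no result about Tcf7l2. Committed OPC-like cells, among the 6, gave a log2 change of 0.29 (SE 0.49). Oligodendrocyte markers in these cells summed to 6378 and 8752 CPM in the controls and 7107 and 12814 CPM in the mutants, 5 of the 7 being higher in the mutant of both replicates, and exceeded the committed OPC markers (5462 to 6036 CPM) in every library. Their part in the Tcf7l2 values was not tested. Axin2, the commonly used readout, had a median log2 change of 0.02 over 13 classes, with a range of -0.40 to 0.35.

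**Figure D4:**
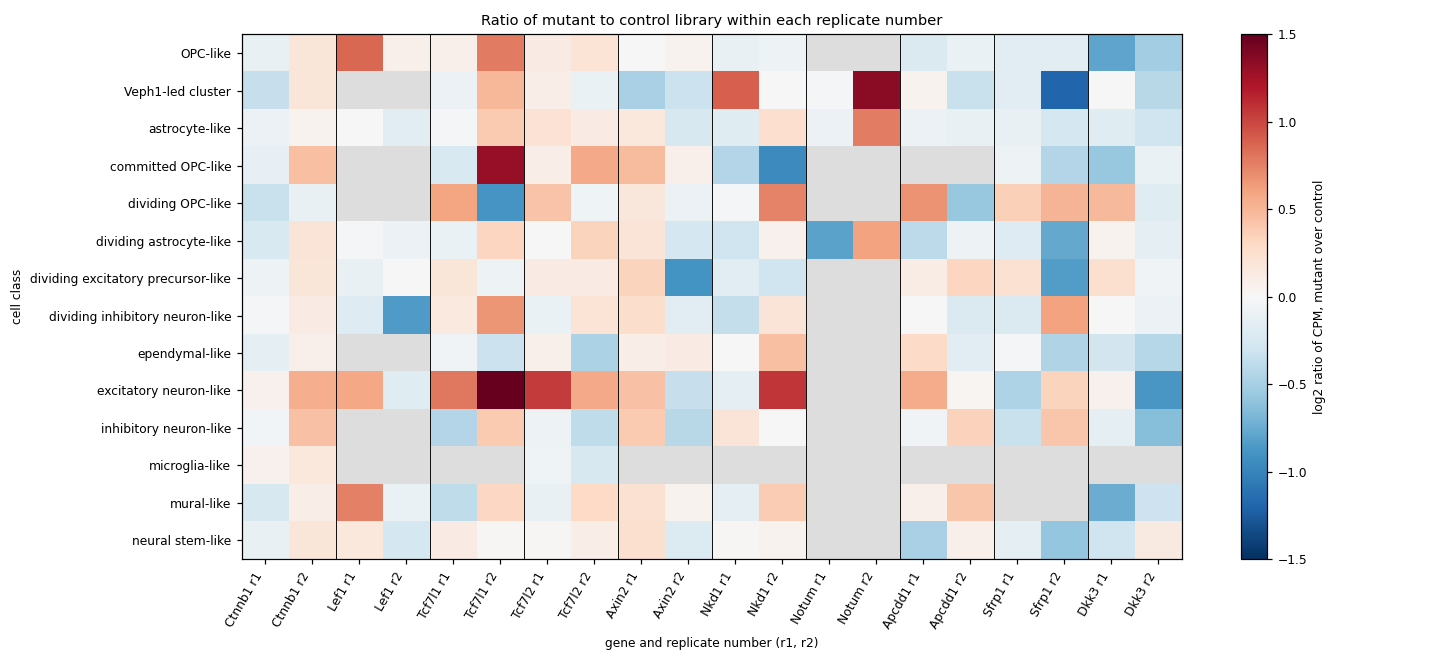
Log2 ratio of CPM, mutant over control library, within replicate 1 (r1) and replicate 2 (r2) for the 10 genes (columns) in the 14 tested classes (rows); grey marks under 50 counts in the 4 libraries and colour is limited to 1.5 on either side. Dkk3 in OPC-like, astrocyte-like and mural-like cells and Sfrp1 in the Veph1-led cluster are blue in both replicates, and Ctnnb1 differs in colour between replicates in most classes.

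In the 4 classes with too few cells for a test, values are given without one. In fibroblast-like cells (18 to 32 cells a library), 4 of the 10 genes lay below both controls in both mutants. Axin2 was 85.6 and 204 CPM in the controls and 37.6 and 59.1 CPM in the mutants. Nkd1 was 89.4 and 161 against 49.4 and 47.3 CPM, Lef1 45.6 and 94.9 against 28.2 and 20.7 CPM, and Dkk3 105 and 138 against 58.8 and 79.8 CPM. Control replicate 2, with 18 cells, was highest for all 4. Ctnnb1 was above, at 274 and 299 against 376 and 387 CPM. Among 5187 genes with at least 50 counts in these cells, 17.3% lay below in the same way. Fibroblast markers themselves summed to 10778 and 15564 CPM in the controls and 9331 and 9730 CPM in the mutants. Mural markers in these cells summed to 2512 and 4693 CPM in the controls and 1228 and 3042 CPM in the mutants, and dividing-cell markers to 299 and 325 CPM in control and mutant replicate 1 and to 19.0 and 868 CPM in control and mutant replicate 2. The part of these markers in the result was not tested.

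Over all cells together, where fewer cells of a type and less RNA a cell cannot be told apart, Sfrp1 and Dkk3 lay below both controls in both mutants. This held for 4.73% of the 19813 genes tested, and 6.29% lay above. Sfrp1 was 80.8 and 96.3 CPM in the controls and 66.2 and 60.01 CPM in the mutants (log2 change -0.51, SE 0.23). The Veph1-led cluster made up 6.51% and 5.48% of the cells in the controls and 5.07% and 3.78% in the mutants. Without that cluster, Sfrp1 was 52.3 and 65.9 CPM in the controls and 47.1 and 50.5 CPM in the mutants, still below in both. Dkk3 was 58.5 and 77.6 CPM in the controls and 47.8 and 58.5 CPM in the mutants (-0.38, SE 0.28). By TMM-scaled levels Sfrp1 stayed without overlap and Dkk3 did not.

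Apcdd1 over all cells was 26.9 and 43.7 CPM in the controls and 36.8 and 60.5 CPM in the mutants (0.44, SE 0.42). Endothelial-like cells, at 0.175% and 0.875% of cells in the controls and 1.10% and 2.07% in the mutants, gave 9.56% to 45.1% of its counts. Without them Apcdd1 was 24.4 and 30.7 CPM in the controls and 23.5 and 34.0 CPM in the mutants. Tcf7l2 was 127 and 73.8 CPM in the controls and 171 and 86.4 CPM in the mutants (0.35, SE 0.47), and 92.1 and 65.5 against 104.5 and 69.9 CPM without committed OPC-like cells. These changes and SEs over all cells are from the fit without the block. None of the 10 genes was called over all cells, with or without the block. Without it the smallest unadjusted p by edgeR was 0.0946, for Sfrp1. With it 4 of the 10 had an unadjusted p under 0.05 by edgeR, including Sfrp1 (0.00508), Apcdd1 (0.0062) and Dkk3 (0.0166). Of the further pathway genes described below, 79 were tested over all cells, and 3 had an unadjusted p under 0.05 by edgeR with the block. In the 14 classes, 5 of the 119 tests of the 10 genes did so with the block. The share of all genes under 0.05 with the block was not counted, so that the count over all cells is no result about the 10 genes.

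Of the 89 further pathway genes, all were in the matrices, and they gave 743 tests in the 14 classes. None was called without the block. Both mutants lay above both controls in 72 tests (9.69%) and below in 59 (7.94%), near the shares of all genes given above. By role, cytoplasmic components lay below in 28 of 197 tests (14.2%) and above in 18 (9.14%), beside 7.27% and 8.22% of all tests. Extracellular inhibitors lay above in 6 of 52 tests (11.5%) and below in 1 (1.92%), with a median log2 change of 0.15. Receptors lay above in 15 (9.09%) and below in 10 (6.06%) of 165 tests. Ligands lay above in 8 (11.8%) and below in 4 (5.88%) of 68. For nuclear components the counts were 12 (8.96%) and 8 (5.97%) of 134, and for R-spondins and receptor turnover 2 (3.70%) and 1 (1.85%) of 54. They were 4 (16%) and 2 (8%) of 25 for ligand secretion, and 7 (14.6%) and 5 (10.4%) of 48 for targets. Tests of a role share genes and libraries, so that they are not separate observations.

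The most abundant genes of each role showed where ligand and receptor mRNA lay. The ligands Wnt4 and Wnt5a were highest in fibroblast-like cells (313 ± 123 and 136 ± 65.6 CPM), and Wnt4 was next in ependymal-like cells (168 ± 10.2 CPM). Wls, which carries Wnt proteins to the cell surface, was also highest in fibroblast-like cells (481 ± 82.4 CPM), and Porcn, which acylates them, in excitatory neuron-like cells (52.5 ± 10.4 CPM). The receptor gene Fzd3 was highest in ependymal-like cells (428 ± 81.5 CPM) and Lrp6 in border macrophage-like cells (256 ± 64.3 CPM). Znrf3, a ligase that removes receptors and is itself a target, was at 121 ± 61.1 CPM in astrocyte-like and 106 ± 59.2 CPM in dividing astrocyte-like cells, within their SDs. Lgr4, an R-spondin receptor, was highest in fibroblast-like cells (69.3 ± 23.6 CPM). Among extracellular inhibitors, Sostdc1 was high in choroid plexus-like cells (1452 ± 476 CPM), and Draxin was similar in neural stem-like (136 ± 36.4 CPM) and excitatory neuron-like cells (132 ± 61.2 CPM). Gsk3b and Csnk1a1, kinases of the destruction complex, had their highest means in inhibitory neuron-like cells (627 ± 78.1 and 479 ± 45.7 CPM), with excitatory neuron-like cells (569 ± 54.0 CPM) and committed OPC-like cells (445 ± 41.7 CPM) within an SD of them. Ctnnbip1, which blocks the binding of beta-catenin to TCF factors, was highest in astrocyte-like cells (466 ± 50.3 CPM). Ctbp1, a corepressor, was at 199.8 ± 43.8 CPM in dividing inhibitory neuron-like and 176 ± 28.9 CPM in committed OPC-like cells, within an SD. Of the targets, Ccnd1 was at 572 ± 109.5 CPM in endothelial-like and 476 ± 46.3 CPM in OPC-like cells, also within an SD, and Tnfrsf19 was highest in astrocyte-like cells (457 ± 47.7 CPM).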

How the data were processed

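The authors deposited UMI counts without normalization, as a gene-by-barcode matrix for each library, made with Cell Ranger (version 3.0 per the submitters' processing notes, 7.0.0 or 5.0.1 per the file headers) on mm10, before any filter on cells. Groups and replicate numbers came from the labels. The study's filter on cells was used (2000 to 40000 UMIs, 1000 genes or more, mitochondrial share up to 10%). Log-normalized values of 2000 variable genes, from which the Wnt pathway genes were left out, were standardized library by library and clustered with scanpy 1.11.5 and leidenalg 0.10.2 (30 components, 15 neighbours, resolution 1). A cluster took the class whose markers scored highest, provided that at least 3 were found in 10% of its cells, and was called dividing where division markers lay 3.0 or more above their median cluster on the log2 scale. A cluster whose leading genes went against its name stayed unnamed. The division threshold was set, and the Veph1-led cluster kept, after the cells were examined. Doublets were kept, and removed as an alternative with Scrublet, which marked 2.42% and 2.79% of cells in the replicate 1 libraries and 0.202% and 0.640% in those of replicate 2.

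For each class the counts of a library's cells were added up. These sums went through filterByExpr and TMM scaling into edgeR 4.0.16 under R 4.3.3 (quasi-likelihood test, genotype only, two-sided, Benjamini-Hochberg over all genes of a class). Classes with fewer than 20 cells in any library were not tested. The study compared cells by a rank-sum test, in which cells count as replicates, and libraries were used here instead. Replicate numbers share a software version per the file headers, and Xist levels also differed between the replicate numbers. Same-numbered libraries deviated together from their group means (correlation 0.61 to 0.90 over the 14 classes), so a replicate block was fitted as an alternative. The other alternatives were DESeq2 1.42.0, no filter on low counts, at least 10 counts in every library, a mitochondrial limit of 5%, a resolution of 2, doublets removed at an expected rate of 0.05, Wnt genes left among the variable genes and leaving out single libraries. Simulated data were used to test the code of the fits. Intervals on ratios are exact (Clopper-Pearson, 95%) and cover counting error only. Gene positions came from an annotation of the same build, GENCODE vM21, in which 99.6% of the matrices' genes were found.

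The genes named are the 10 genes and Chd8, pathway genes with an adjusted p under 0.05 in any class, the 2 most abundant genes of each role and the 3 genes nearest each of the 10. Rspo3 and Wnt8b were called only with the block. The single clusters, the levels without a class and the split of the Veph1-led cells were chosen after their values were seen. The members and lists were chosen with earlier results of these data known. Some results on single clusters are not reported here.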

Additional observations from a re-analysis of the deposited data

Results flagged for a closer look

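Apcdd1 was picked out because both mutant libraries lay above both controls in dividing excitatory precursor-like cells and below both in astrocyte-like and dividing astrocyte-like cells. The log2 changes differed by 0.34 from astrocyte-like and by 0.46 from dividing astrocyte-like cells. The difference between classes was not tested, and none of the 3 changes was called within its class.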

How the results depend on the processing

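The count of the 10 genes called over the 14 classes was 0 in the fit as reported and 1 with the replicate block (Sfrp1 in the Veph1-led cluster), and that of the 89 further genes was 0 and 2 (Rspo3 and Wnt8b there). Both counts stayed at 0 under the other alternatives run, including each library left out (0 to 0). The block changed no other call among these genes. The cause was not tested. With each library left out in turn, the log2 change over all cells changed sign for Chd8 (range -0.17 to 0.43), Ctnnb1 (-0.22 to 0.26), Lef1 (-0.15 to 0.19), Tcf7l1 (-0.28 to 0.66), Tcf7l2 (-0.22 to 0.77), Axin2 (-0.54 to 0.54), Nkd1 (-0.25 to 0.45) and Notum (-0.39 to 0.92), and in the Veph1-led cluster for Rspo3 (-0.94 to 4.51) and Wnt8b (-0.57 to 8.87). With doublets removed, Lef1 over all cells was -0.0199 (log2). Directions of Sfrp1 (-0.65 to -0.34) and Dkk3 (-0.58 to -0.12) over all cells were kept without each library. A lone library of a group is assumed to vary like the other group. The fits with a library left out had no block, so that differences between replicate numbers also entered their changes. Within replicate numbers, Chd8 over all cells was higher in each mutant, as were Rspo3 and Wnt8b in the Veph1-led cluster. At a resolution of 2 the Veph1-led cells numbered 345 and 255 in control and mutant replicate 1, against 372 and 287 at a resolution of 1. They numbered 10 and 8 in control and mutant replicate 2, against 163 and 124, so that this cluster was not tested there. Whether the cluster holds the same kind of cell in both replicate numbers was not tested. Levels in the highest class of each gene moved by less than 1 SD in all 40 recomputed values. Classes with few cells (endothelial-like, fibroblast-like) and genes near 3 counts a library limit what could be seen.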
